A study of Danio rerio with 4 samples.

Results

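Gene expression in Bad morphant zebrafish at 12 hours post fertilization (hpf), during segmentation, was measured against wild-type embryos of that age on 2 arrays. The described features are the 25256 noncontrol probes, of 43603 on the array, whose signal on both 12 hpf arrays was well above background in 1 channel or in both. They include 13282 probes with a gene symbol, for 9407 genes, and a gene is given by its brightest probe unless another probe is named. Of the same 43603 probes, 27137 passed this criterion on the 24 hpf arrays.

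The morphant group, labelled MO-Bad, had 2 to 3 nl of morpholino injected at the 1-cell stage, and the wild type (WT) is labelled control. Each group had 2 pools of 200 whole embryos at 12 hpf and 2 at 24 hpf, kept at 28 °C. The light cycle was 14 h of light and 10 h of dark. Total RNA of 1 MO-Bad pool in Cy5 and of 1 WT pool in Cy3 shared each array, so 4 arrays carried 8 labelled RNAs. A morpholino is a synthetic oligonucleotide that blocks the translation or the splicing of its target mRNA, and the labels do not say which of these was used. No control morpholino, injected control or dye swap is named, so effects of the knockdown, of injection and of the dyes cannot be told apart at 12 hpf. All 4 arrays lay on 1 slide with 1 scan time, and p-values measure only the spread between these arrays.

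Bad promotes cell death: through its BH3 domain it binds the survival members of the Bcl-2 family, and phosphorylation holds it inactive. In the segmentation period the somites form in sequence from the presomitic mesoderm, the neural plate is regionalized, and the tail bud extends the axis. Most mRNAs that the oocyte supplied are cleared by these stages, while Bmp, Nodal, Fgf, Wnt and Notch signals pattern the embryo.

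The stage was checked on marker genes. Markers of paraxial mesoderm (tbx16, myod1, myf5, her1, her7, mespba), notochord (tbxta, noto, shha), neural plate (sox3, sox19a, pax2a, egr2b, otx2b), epidermis (krt4, krt8, tp63, cldne) and hatching gland (he1.1, klf17) were well above background in both groups on both arrays. The lens crystallin genes cryaa and cryba1b and the fast muscle genes mylpfa and pvalb2 were not well above background in either group, nor was the red blood cell factor gata1a. The later genes hbbe3, hbae3 and tnnt3b were measured, with tnnt3b at a normalized intensity of 411 and 564 in MO-Bad and 259 and 412 in WT. On 12 hpf arrays 1 and 2 the median spot signal over all noncontrol probes was 92 and 88.5 in the MO-Bad channel. It was 52 and 59 in the WT channel, and median local backgrounds lay between 29 and 49. Between 55.9% and 60.6% of probes were well above background in a 12 hpf channel.

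At 12 hpf 3429 member probes (13.6%) were called higher in MO-Bad and 2631 (10.4%) were called lower, at a limma Benjamini-Hochberg adjusted p under 0.05, so that 24.0% of member probes were called. By gene, 1250 of 9407 (13.3%) rose and 1117 (11.9%) fell, or 25.2% together. Most of these changes were small, with a median size of 0.32 on the log2 scale over the called probes. Only 42 called probes were higher by 2-fold or more and 30 were lower by as much, together 0.285% of the members, and 378 and 152 more lay between 1.5 and 2-fold. The remaining 3009 higher and 2449 lower calls were under 1.5-fold. Of the 72 probes past 2-fold, 50 carried a gene symbol, for 43 genes.

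The balance of rises and falls depended on how the dyes were aligned. Loess normalization, used throughout, left the median gene at -0.00 on the log2 scale. Centring each array on the median of the probes kept for testing moved the median gene to 0.12, with 1443 genes called higher and 166 lower. Centring on the median of all noncontrol probes moved it to 0.31, with 129 higher and 6 lower. All changes below are relative to the loess zero. Both centrings move the median gene upward, so a loss of falls under them follows from the direction of the shift, and a rise that keeps its sign under them gains no support from it. A called gene named below kept its direction in all settings unless a change is stated. Calls were lost more often than signs, and most such losses are not stated gene by gene. Plain background subtraction cost 47 of 111 genes followed through the settings their call. Processed signals of the scanner cost 31 of them the call, and deposited log ratios 29. Under centring over the probes kept 14 lost it and 5 turned sign, and over all noncontrol probes 63 and 8. With 12 hpf replicate 1 left out 539 genes were called higher and 454 lower, and with 12 hpf replicate 2 left out 850 and 618. In these fits, here and below, 12 hpf is a single array and the spread comes from the 24 hpf arrays alone (1 residual degree of freedom before moderation), so the lone array is assumed to vary like those. Of the 2367 called genes, 692 (404 higher and 288 lower) were called in the same direction with either 12 hpf array left out. A core of 71 genes, 65 higher and 6 lower, was called in the same direction in all 19 settings that took a gene by its brightest probe. The mean of a gene's probes, which also gave calls per gene, was not among these settings. With either 24 hpf array left out the 12 hpf counts were those of the 12 hpf arrays alone, 1294 higher and 1124 lower. The 6 lower genes were mixl1, egln3, tmem144b, tesca, birc5b and rundc3ab.

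The 2 arrays correlated at Pearson's r = 0.75 and Spearman's rho = 0.70 over the 25256 member probes, which share slide, dye orientation and probe sequence. The median difference between the 2 arrays was 0.10 on the log2 scale. Opposite signs on the 2 arrays were seen for 6243 probes (24.7%), and for 0 of the called ones. The spread in the test includes the difference between these arrays, so a call with opposite signs is unlikely by construction. Calls were fewest among dim probes. With the members split into 4 equal bins of intensity, 4.45% were called higher and 3.5% lower in the dimmest bin, and 14.5% each in the brightest.

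**Figure D1:**
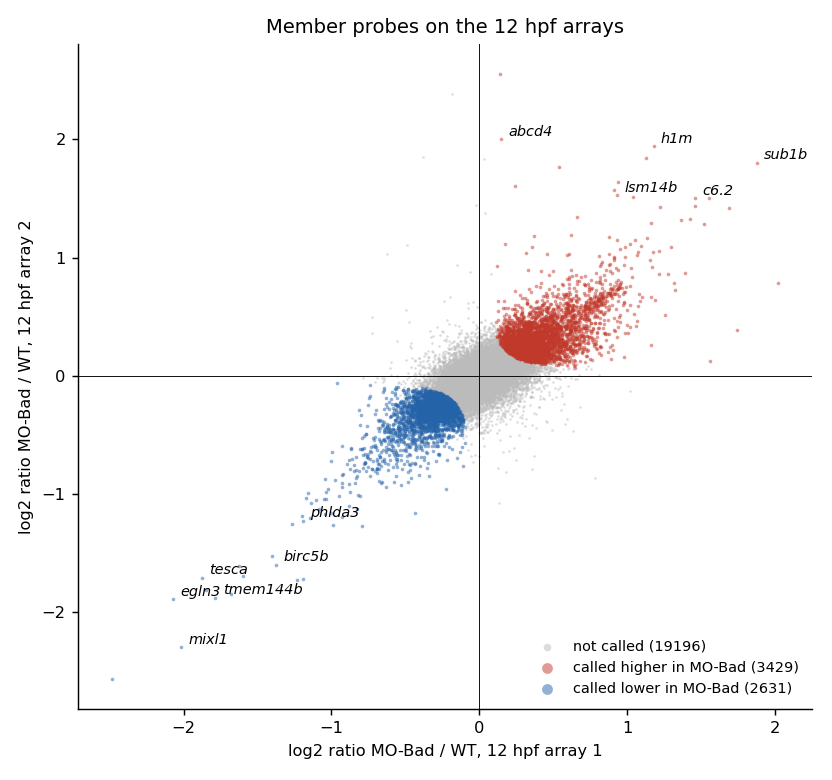
Log2 ratio of MO-Bad over WT on 12 hpf array 1 (horizontal) against array 2 (vertical), 1 point per member probe. The 3429 probes called higher are red, the 2631 called lower are blue and the others are grey; mixl1, egln3, tmem144b and tesca lie at the lower end on both axes, sub1b and c6.2 at the upper end, and abcd4 is high on array 2 alone. With median centring over all noncontrol probes, 267 probes were called higher and 12 lower.

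Genes with more than 1 member probe give a measure of how far a call belongs to the gene rather than to 1 probe sequence. Among 490 genes whose brightest probe was called higher, the next brightest had the same sign in 376 (76.7%), and it was called higher in 176 and lower in 17. Among 407 genes called lower by the brightest probe, 361 (88.7%) had the same sign on the next one, which was called lower in 183 and higher in 4. For 2247 genes whose brightest probe was not called, 62.5% shared a sign. Of 113 genes called at 1.5-fold or more, 101 (89.4%) kept the sign. In all, 25 of 3144 such genes had probes called in both directions.

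**Figure D2:**
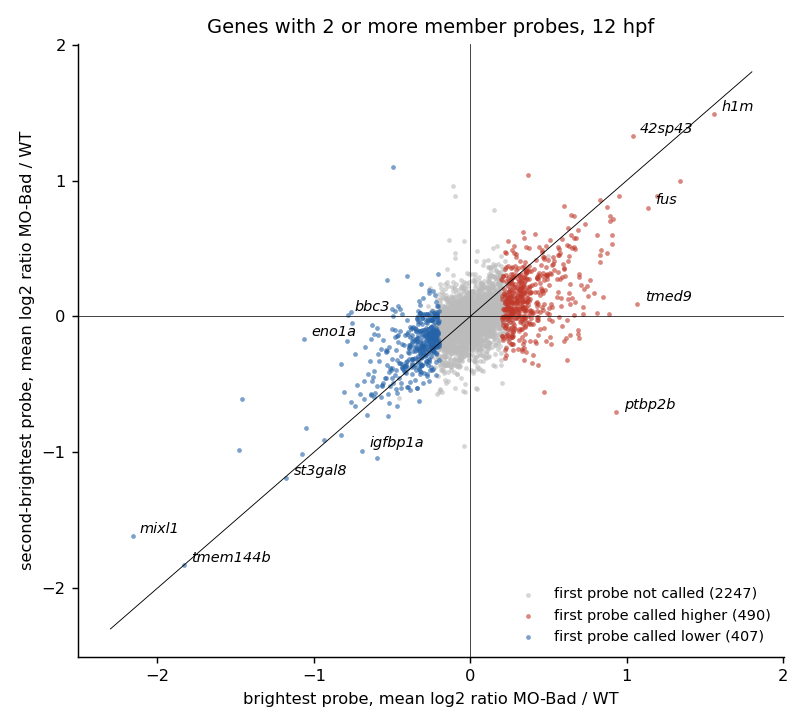
Mean log2 ratio of MO-Bad over WT at 12 hpf for the brightest member probe of a gene (horizontal) against its next brightest (vertical), for the 3144 genes with more than 1 member probe; the diagonal marks equal values. The named genes mixl1, tmem144b, st3gal8, h1m, 42sp43 and fus lie near the diagonal, while tmed9, eno1a and bbc3 lie near 0 on the next brightest probe and ptbp2b lies below 0 on it.

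The target is named only as Bad. The paralogue badb was measured by 1 probe, and no probe was matched to bada. badb had a normalized intensity of 1762 and 1750 in MO-Bad, against 2165 and 2015 in WT. It was lower in MO-Bad on both arrays, by little: the log2 ratio was -0.25 ± 0.07 (SD, n = 2 here and below), with an adjusted p of 0.0358. The call was lost with 12 hpf replicate 1 left out (-0.20, adjusted p = 0.263) and with 12 hpf replicate 2 left out (-0.30, adjusted p = 0.0798). With median centring over all noncontrol probes the sign turned, to 0.14. The transcript level does not measure the protein.

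Of 24 measured members of the Bcl-2 family 3 (12.5%) were called higher and 4 (16.7%) lower, near the 13.3% and 11.9% of all genes, with a median of -0.06, which was 0.16 and 0.35 with the centrings over the probes kept and over all noncontrol probes. With either 12 hpf array left out, 2 were called in each direction. The largest fall was that of bbc3, which encodes the BH3-only protein Puma, at -0.78 ± 0.22. Its other probe gave 0.01 and was not called. bcl2l13 rose by 0.47 ± 0.10, with 0.09 on its other probe, the Bok paralogue bokb rose by 0.36 ± 0.04, and the co-chaperone gene bag6 was called lower at -0.43 ± 0.13, a sign that turned to 0.14 with median centring over all noncontrol probes. Of 33 measured caspase, death receptor and inhibitor of apoptosis genes, 7 (21.2%) were higher and 3 (9.09%) lower, beside 13.3% and 11.9% of all genes. With the scanner software's processed signals 1 was called in each direction. The list median was 0.05 on array 1 and 0.03 on array 2. The largest fall in that list was that of the survivin paralogue birc5b, at -1.49 ± 0.16, described below with the oocyte mRNAs. The apical caspase gene casp8 fell by 0.67 ± 0.28, while the mitochondrial IAP antagonist diabloa rose by 0.40 ± 0.10. diabloa, with 12 hpf replicate 1 left out, was at 0.33 and no longer passed (adjusted p = 0.0511).

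Several of the large rises were those of mRNAs that the oocyte makes. Of 43 measured genes in this list 20 (46.5%) rose and 4 (9.3%) fell, beside 13.3% and 11.9% of all genes. The median was 0.21 beside -0.00 over all genes. With the scanner software's processed signals 9 were called higher and 3 lower, where 336 and 298 of all genes were. Intensities here and below are normalized within each array and not between arrays. h1m, the linker histone of oocytes and early embryos, had an intensity of 5928 and 4704 in MO-Bad, against 2616 and 1225 in WT. Both MO-Bad values lay above both WT values, and the WT pools differed from each other by more than 2-fold. Its log2 ratio was 1.56 ± 0.54 (adjusted p = 0.000209), and its other probe read 1.49. nanog, a pluripotency factor that helps to start zygotic transcription, was at 3690 and 2526 in MO-Bad, against 2010 and 1118 in WT, a rise of 1.03 ± 0.21. lsm14b, whose product binds mRNA in ribonucleoprotein granules, was at 1329 and 977 in MO-Bad, against 696 and 339 in WT, a rise of 1.23 ± 0.42. ccna1, a meiotic and early embryonic cyclin, was at 451 and 319 in MO-Bad, against 285 and 126 in WT, a rise of 1.00 ± 0.48. The T-box gene eomesa, with a maternal and a mesendodermal role, was at 415 and 331 in MO-Bad, against 271 and 145 in WT, a rise of 0.90 ± 0.40. In each of these genes the lower MO-Bad pool exceeded the higher WT pool, across arrays not normalized to each other. Genes so described here and below were named for large ratios, and the share of all genes with such separation was not counted.

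In those genes the 2 WT pools also differed. The level in WT replicate 1 minus WT replicate 2, after quantile normalization between arrays, was 1.03 for h1m, 0.79 for nanog, 1.01 for lsm14b, 1.195 for ccna1, 0.92 for eomesa and 0.96 for 42sp43, on the log2 scale. Over the 43 genes of the list 5 were at least 1.5-fold higher in WT replicate 1 and 0 in WT replicate 2. Over all 9407 genes these numbers were 28 and 32. Not all of the 6 genes just named belong to the list, since each of them was at least 1.5-fold higher in WT replicate 1. In these 6 genes the MO-Bad pools differed in the same direction by less, between 0.27 for h1m and 0.74 for 42sp43. Over the whole list the pools of both groups differed alike, with a median of 0.12 in MO-Bad and 0.11 in WT, and 34 and 31 of the 43 genes were higher in replicate 1. Other oocyte mRNAs differed more between the MO-Bad pools, slbp2 by 0.50 in MO-Bad and 0.29 in WT, wee2 by 0.52 in MO-Bad and -0.01 in WT, and rbpms2b by 0.43 in MO-Bad and -0.06 in WT. The part that small differences in age between the pools had in these ratios was not tested.

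Other mRNAs of the same kind rose as well. slbp2, which binds the stem-loop of histone mRNAs, was at 1049 and 745 in MO-Bad, against 426 and 351 in WT, a rise of 1.19 ± 0.15. tnfaip1, a BTB adaptor of a ubiquitin ligase, was at 5156 and 5165 in MO-Bad, against 2000 and 2067 in WT, and rose by 1.34 ± 0.03, with 0.99 on its other probe. The tight junction gene cldnd rose by 1.07 ± 0.12 and 42sp43, homologous to a 5S RNA-binding protein of Xenopus oocytes, by 1.04 ± 0.16, with 1.33 on its other probe. Smaller rises, named after their values were seen, were those of the oocyte transcription factor gene figla at 0.73 ± 0.21, the egg coat gene zp3d.1 at 0.67 ± 0.01, the zinc finger gene cth1 at 0.63 ± 0.01, the meiotic kinase gene mos at 0.53 ± 0.02 and the oocyte growth factor gene bmp15 at 0.52 ± 0.08.

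Not all oocyte mRNAs moved that way. wee2, an oocyte kinase that inhibits Cdk1, was at 1649 and 1126 in MO-Bad, against 3766 and 3713 in WT, and fell by 1.46 ± 0.37. birc5b, a survivin paralogue of the chromosomal passenger complex, was at 692 and 560 in MO-Bad, against 1791 and 1697 in WT, and fell by 1.49 ± 0.16. rbpms2b, whose product binds the oocyte organizer Bucky ball, was at 650 and 485 in MO-Bad, against 1532 and 1604 in WT, and fell by 1.48 ± 0.35. For all 3 the WT pools were close to each other, and the groups lay far apart. The other probe of wee2 read -0.61 and that of rbpms2b -0.98, both called. The fourth fall of the list, sox19b, was small (-0.26), lost its call with either 12 hpf array left out (adjusted p = 0.118 without replicate 1 and 0.0882 without replicate 2), was 0.00 with median centring over the probes kept and turned to 0.20 with median centring over all noncontrol probes.

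**Figure D3:**
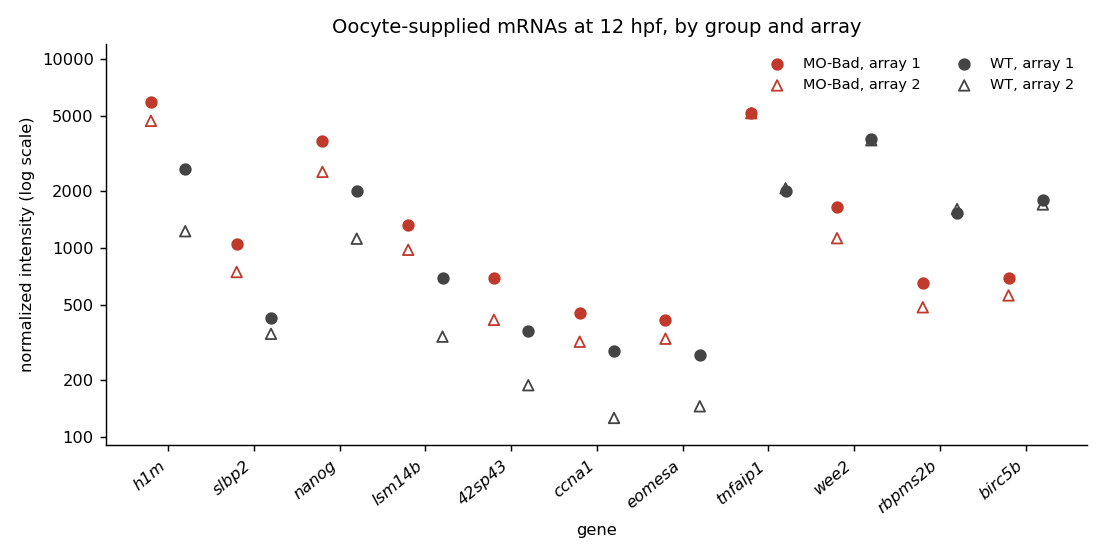
Normalized intensity at 12 hpf on a log axis for 11 oocyte-made mRNAs, with MO-Bad (red, left) and WT (grey, right) of each gene and both arrays (circle for array 1, triangle for array 2). From h1m to tnfaip1 both MO-Bad values exceed both WT values, and in h1m, nanog, lsm14b, 42sp43, ccna1 and eomesa the WT value of array 1 is well above that of array 2; in wee2, rbpms2b and birc5b both MO-Bad values are below both WT values.

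Germ-line genes overlapped with that list. Of 16 measured, 9 (56.2%) rose and 2 (12.5%) fell, beside 13.3% and 11.9% of all genes, with a median of 0.26. The germ plasm gene dazl rose by 0.51 ± 0.08, the Tudor domain gene tdrd1 by 0.55 ± 0.03 and ca15b by 0.58 ± 0.08. With 12 hpf replicate 1 left out, dazl was at 0.45 and lost its call (adjusted p = 0.118), and 3 of the list were called higher. Against these, the vasa helicase gene ddx4, a marker of primordial germ cells, was at 808 and 759 in MO-Bad, against 1180 and 1028 in WT. It fell by 0.49 ± 0.08, with -0.49 on its other probe. The germ cell marker nanos3 went the other way, called higher at 0.22 (0.24 on array 1 and 0.19 on array 2). It was not followed through the other settings. mov10l1, a helicase of the piRNA pathway, fell by 0.41 ± 0.05. Fewer cells of a type and less RNA per cell cannot be told apart in whole embryos, here and in the lists below.

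Among the other large rises, sub1b, a coactivator that binds single-stranded DNA, had the highest ratio. It was at 25866 and 24698 in MO-Bad, against 7042 and 7088 in WT, so that the pools of each group nearly coincided, and rose by 1.84 ± 0.05 (3.58-fold, adjusted p = 1.63e-06). The complement gene c6.2 was at 3481 and 3251 in MO-Bad, against 1263 and 1149 in WT, and rose by 1.48 ± 0.03. rangap1b, whose product stimulates GTP hydrolysis by Ran in nuclear transport, rose by 1.40 ± 0.17. cnpy2, an endoplasmic reticulum protein gene, rose by 1.38 ± 0.07. The RNA-binding gene fus was at 16724 and 16668 in MO-Bad, against 7201 and 8011 in WT, and rose by 1.14 ± 0.11, with 0.80 on its other probe. uraha, of urate breakdown, rose by 1.103 ± 0.07, the NDR kinase gene stk38a by 1.06 ± 0.02, mat1a, which makes S-adenosylmethionine, by 1.05 ± 0.37, and the Golgi SNARE gene stx5a by 1.04 ± 0.03. ptk7a, a receptor-like gene of planar cell polarity, rose by 0.96 ± 0.03, and the membrane glycoprotein gene bsg by 0.91 ± 0.14, with 0.72 on each of its other 2 probes. cdkn2aipnl rose by 0.95 ± 0.05 with 0.88 on its other probe, ppp1r3c2b, a glycogen-targeting subunit of protein phosphatase 1, by 0.95 ± 0.11, and bin2a by 0.92 ± 0.03.

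For 2 of the 25 largest rises the probes did not give 1 answer. The cargo receptor gene tmed9 was at 1.07 ± 0.07 on its brightest probe and 0.09 on the other, which was not called. The splicing regulator gene ptbp2b was at 0.93 ± 0.14 on its brightest probe, 0.29 on another and -0.71 on the remaining one, all 3 called. abcd4 rested on 1 array: it was at 78.1 and 289 in MO-Bad, against 70.6 and 72.2 in WT, and its log2 ratio was 0.15 on array 1 and 2.00 on array 2. Without 12 hpf replicate 2 it was not called (0.15, adjusted p = 0.336).

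The largest fall was that of mixl1, a homeobox gene induced by Nodal signals in mesendoderm. It was at 1120 and 1017 in MO-Bad, against 4534 and 5000 in WT, and fell by 2.16 ± 0.20 (4.46-fold), with -1.62 on its other probe. Both probes were below 0 on both arrays. tmem144b was at 570 and 499 in MO-Bad, against 1964 and 1836 in WT, and fell by 1.83 ± 0.07, with -1.83 and -0.91 on its other 2 probes. tesca, which encodes the calcium-binding tescalcin, was at 802 and 888 in MO-Bad, against 2947 and 2909 in WT, and fell by 1.79 ± 0.12. rundc3ab was at 104 and 101 in MO-Bad, against 276 and 289 in WT, and fell by 1.46 ± 0.08. The groups were separated by far more than the pools in each of these genes.

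Further falls covered several functions. gdf3, the maternal Vg1 ligand that pairs with Nodal, was at 1617 and 1432 in MO-Bad, against 3425 and 3123 in WT, and fell by 1.104 ± 0.03. It was not in the list of oocyte mRNAs above, so its fall is not counted there. fosab, an immediate-early transcription factor gene, fell by 1.08 ± 0.04, and all 5 of its probes were called lower, between -0.52 and -1.08. The sialyltransferase gene st3gal8 fell by 1.18 ± 0.04 with -1.19 on its other probe, the phosphoinositide-binding gene phlda3 by 1.21 ± 0.02, tph2, the rate-limiting enzyme of serotonin synthesis in neurons, by 1.13 ± 0.19 and clmnb by 1.11 ± 0.09. vldlr, a lipoprotein and Reelin receptor gene, fell by 0.98 ± 0.21 at a low intensity of 110 and 106 in MO-Bad, against 195 and 232 in WT. Falls among abundant mRNAs were those of the RNA-binding fxr1 at -0.90 ± 0.02, the spliceosome gene cdc5l at -0.82 ± 0.03 and the autophagy gene map1lc3b at -0.81 ± 0.00. rbm48 fell by 0.93 ± 0.01, abhd16a by 0.85 ± 0.02 and the F-box gene fbxw5 by 0.83 ± 0.06, the last with -0.35 and -0.18 on its other 2 probes.

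**Figure D4:**
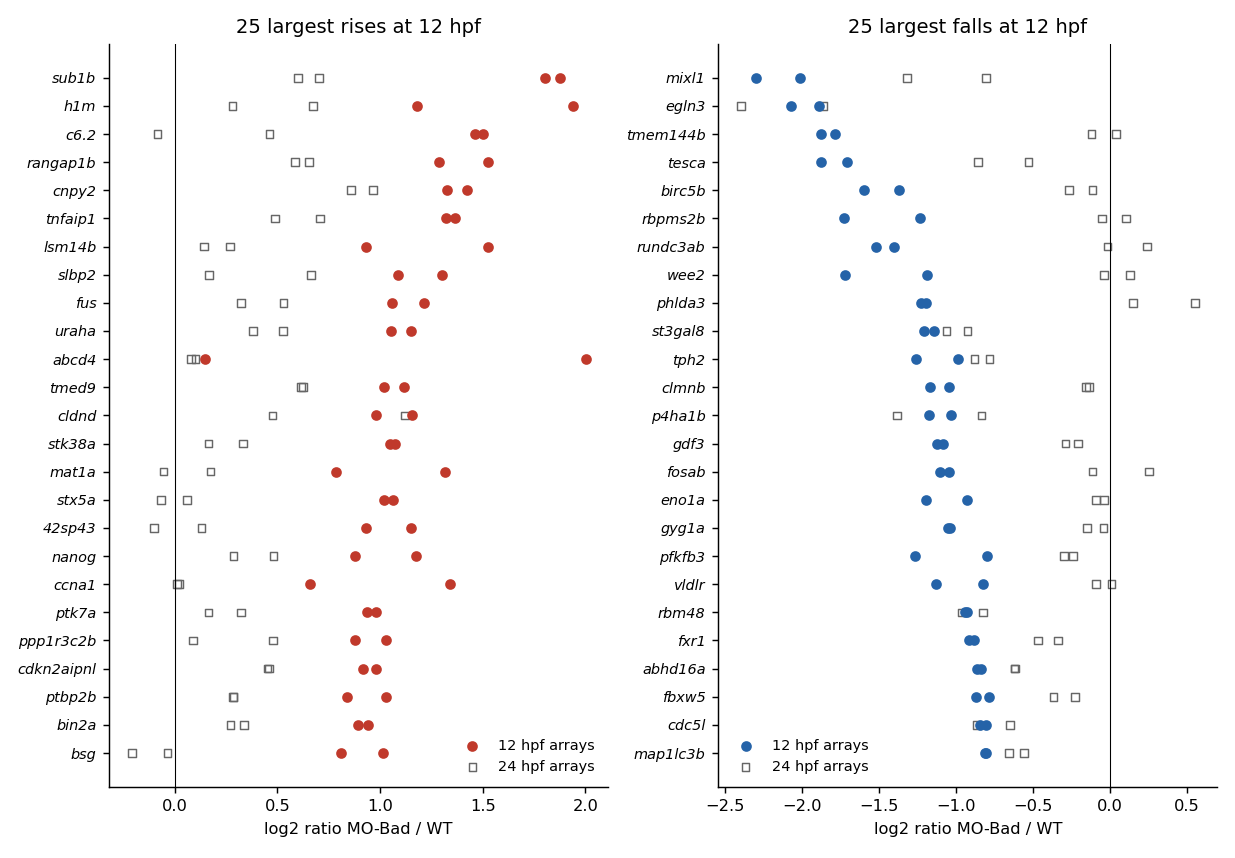
Log2 ratio of MO-Bad over WT on each array for the 25 genes with the largest rises (left) and the 25 with the largest falls (right) at 12 hpf; filled points are the 12 hpf arrays and open squares the 24 hpf arrays. Among the rises the 12 hpf points of h1m, lsm14b, abcd4, mat1a and ccna1 lie apart, while egln3, st3gal8, p4ha1b, rbm48 and cdc5l have their 24 hpf squares close to the 12 hpf points.

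Several of the larger falls were those of oxygen-sensing and glycolytic genes, though most genes of both lists were not called. Of 32 measured genes of the oxygen-sensing pathway, in which prolyl hydroxylases mark Hif subunits for destruction by Vhl, 11 (34.4%) fell and 4 (12.5%) rose. Of all genes 11.9% fell and 13.3% rose. In that list 17 were not called, and the median was -0.14. Without 12 hpf replicate 1, 7 were called lower and 1 higher, and without replicate 2, 10 and 2. egln3, a prolyl hydroxylase gene that Hif itself induces, was at 360 and 367 in MO-Bad, against 1511 and 1360 in WT, and fell by 1.98 ± 0.13 (3.95-fold). p4ha1b, a subunit of collagen prolyl 4-hydroxylase, was at 1788 and 2016 in MO-Bad, against 4038 and 4135 in WT, and fell by 1.11 ± 0.10. pfkfb3, whose product makes the glycolytic activator fructose 2,6-bisphosphate, was at 297 and 327 in MO-Bad, against 517 and 788 in WT, and fell by 1.03 ± 0.33. The lactate dehydrogenase gene ldha was at 366 and 408 in MO-Bad, against 636 and 629 in WT, and fell by 0.71 ± 0.12. igfbp1a, an Igf-binding protein gene, fell by 0.69 ± 0.30, with -0.99 and -0.73 on its other 2 probes. The mTORC1 inhibitor gene ddit4 was called lower at -0.44 ± 0.01, but not with 12 hpf replicate 1 left out (-0.43, adjusted p = 0.0912) or replicate 2 left out (-0.44, adjusted p = 0.0618).

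Of 37 measured glucose metabolism genes 10 (27%) fell, 2 (5.41%) rose and 25 were not called, while 11.9% of all genes fell and 13.3% rose. The median was -0.08, which was 0.03 with median centring over the probes kept and 0.22 with centring over all noncontrol probes. Without 12 hpf replicate 1, 6 were called lower and 4 higher, and without replicate 2, 7 and 3. The median of the oxygen-sensing list was -0.08 and 0.11 under the same centrings, so the direction of both medians turned with the scaling. The enolase gene eno1a fell by 1.06 ± 0.19 on its brightest probe, at 462 and 445 in MO-Bad, against 880 and 1020 in WT, and its other probe read -0.17 and was not called. gyg1a, the protein primer of glycogen, fell by 1.05 ± 0.01 with -0.82 on its other probe, and aldocb, an aldolase, by 0.64 ± 0.23 with -0.17 on its other probe, which was not called. gapdh moved the other way, at 21137 and 20565 in MO-Bad, against 13607 and 13629 in WT, a rise of 0.61 ± 0.03. tpi1a, another glycolytic enzyme gene, rose by 0.41 ± 0.06. Of 62 respiratory chain genes, 5 (8.06%) rose and 4 (6.45%) fell, both under the shares of all genes (13.3% and 11.9%). With centring over the probes kept these counts were 23 and 1.

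Of 27 measured Igf, Foxo and mTOR genes 11 (40.7%) fell and 2 (7.41%) rose, beside 11.9% and 13.3% of all genes. The median was -0.03, which was 0.00 and 0.19 with the centrings over the probes kept and over all noncontrol probes. The largest rise in this list and in the oxygen-sensing list was that of igfbp1b, at 0.64 ± 0.66. It was high on array 2 alone, with 0.17 on array 1 and 1.11 on array 2. The lists share genes, so their counts are not independent. foxo3b, a Forkhead factor gene, was at 1077 and 1186 in MO-Bad, against 1724 and 2193 in WT, and fell by 0.78 ± 0.15. Besides foxo3b and igfbp1a, the growth factor gene igf2a was at 813 and 850 in MO-Bad, against 1144 and 1207 in WT, and fell by 0.50 ± 0.01. With median centring over the probes kept, 2 of the list were called lower and 2 higher. Leaving out any 1 of the 12 hpf arrays, 6 were called lower and 1 higher.

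Genes of dorsoventral patterning were mostly higher among those called. Bmp ligands specify ventral fates in the early embryo and later act in the tail bud and epidermis, and Chordin and Noggin bind them outside the cell. Of 39 measured genes of this pathway 20 (51.3%) rose and 2 (5.13%) fell, beside 13.3% and 11.9% of all genes. With the scanner software's processed signals 2 were called higher and 0 lower, where 336 and 298 of all genes were. The list median was 0.22, and 0.20 with those signals. It was 0.43 and 0.62 under the centrings over the probes kept and over all noncontrol probes, both of which raise the median gene as well. Among ligands, bmp4 was at 1360 and 1283 in MO-Bad, against 892 and 963 in WT, and rose by 0.51 ± 0.14, with 0.32 on its other probe. twsg1b, an extracellular modulator named after its value was seen, rose by 0.42 ± 0.06. Among targets, the ventral homeobox repressor gene ved was at 61199 and 58206 in MO-Bad, against 40479 and 39104 in WT, and rose by 0.59 ± 0.02, with 0.57 on its other probe. Its paralogue vox rose by 0.43 ± 0.04 on its brightest probe, with 0.07 on the other, which was not called. tp63, of basal epidermis, rose by 0.44 ± 0.14, the tail homeobox gene eve1 by 0.41 ± 0.00 and msx2b by 0.40 ± 0.01. id4, named after its value was seen, rose by 0.42 ± 0.01.

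The 2 falls of that list were both Bmp antagonists. nog1, for Noggin, was at 1952 and 2034 in MO-Bad, against 2368 and 2457 in WT, a log2 ratio of -0.28 ± 0.00. chrd, for Chordin, was at 7916 and 8289 in MO-Bad, against 8672 and 10935 in WT, a log2 ratio of -0.27 ± 0.19. Both calls were weak. nog1 lost its call with 12 hpf replicate 1 left out (-0.27, adjusted p = 0.0987) and with replicate 2 left out (-0.28, adjusted p = 0.0690), and chrd with replicate 2 left out (-0.13, adjusted p = 0.402). chrd turned to 0.08 with median centring over the probes kept, and both turned above 0, to 0.12 for nog1 and 0.27 for chrd, with centring over all noncontrol probes. In the list as a whole 10 were called higher without 12 hpf replicate 1 and 9 without replicate 2.

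Somite and presomitic mesoderm genes showed 9 rises (20.9%) and 2 falls (4.65%) among 43 measured, beside 13.3% and 11.9% of all genes. The list median was 0.03. wnt8a, a ligand of the ventral margin and tail bud, was at 1510 and 1548 in MO-Bad, against 901 and 940 in WT, and rose by 0.73 ± 0.02, with 0.68 on its other probe. ripply2, a repressor that sets somite boundaries, was at 1028 and 1056 in MO-Bad, against 729 and 777 in WT, and rose by 0.47 ± 0.04. The segmentation clock gene her7 was at 0.31 ± 0.02 (not called without 12 hpf replicate 1, adjusted p = 0.104, or replicate 2, 0.0596), and its partner her1 at 0.04 ± 0.14, not called. lfng, a glycosyltransferase that modifies Notch, was at 27468 and 30317 in MO-Bad, against 38526 and 41508 in WT, a log2 ratio of -0.47 ± 0.02, which turned to 0.03 and 0.22 under the centrings over the probes kept and over all noncontrol probes. With 12 hpf replicate 1 left out 4 of the list were called higher and 3 lower, and with replicate 2 left out 6 and 1.

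Of 34 mesendoderm genes, mixl1 and eomesa among them, 3 (8.82%) were higher and 4 (11.8%) lower, beside 13.3% and 11.9% of all genes. The median was -0.02, which was 0.14 and 0.33 under the centrings over the probes kept and over all noncontrol probes. Without 12 hpf replicate 1, 1 was called in each direction, and without replicate 2, 2 higher and 1 lower. sox17, the endoderm marker, was at 199 and 197 in MO-Bad, against 243 and 245 in WT, a log2 ratio of -0.30 ± 0.02 with -0.27 on its other probe. With 12 hpf replicate 1 left out its adjusted p was 0.0636, and with replicate 2 left out 0.0618. The notochord genes tbxta and noto, at 0.14 ± 0.18 and -0.11 ± 0.08, were not called, nor was shha at -0.06 ± 0.03, and noto and shha turned above 0 under both centrings. Of 46 Wnt pathway genes 4 (8.7%) rose and 9 (19.6%) fell, with the Wnt agonist rspo1 at -0.68 ± 0.13. Of 24 Fgf pathway genes 1 (4.17%) was higher and 4 (16.7%) lower, though the list median was above 0, at 0.06 (0.07 on array 1 and 0.02 on array 2). With centring over the probes kept these counts were 8 and 1 for the Wnt list and 4 and 0 for the Fgf list.

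Of 83 measured neural genes 12 (14.5%) rose and 9 (10.8%) fell, about the shares of all genes (13.3% and 11.9%), and 5 and 5 did without 12 hpf replicate 1 and 7 and 7 without replicate 2. The neural cadherin gene cdh2 was at 14916 and 17470 in MO-Bad, against 24051 and 30166 in WT, and fell by 0.74 ± 0.07, with -0.66 and -0.08 on its other 2 probes, and the forebrain homeobox gene lhx5 fell by 0.58 ± 0.04. Also called lower were onecut1 at -0.59 ± 0.22 and mafba at -0.42 ± 0.07, each with another probe not called, and rx3 at -0.38 ± 0.05. These last falls were not followed through the other settings. The proneural genes neurod4 and ascl1b, the latter named after its value was seen, were higher, at 0.47 ± 0.07 and 0.46 ± 0.08. Neural crest genes showed 8 rises (23.5%) and 0 falls among 34, beside the same shares of all genes. The crest marker sox10 was at 664 and 571 in MO-Bad, against 382 and 402 in WT, a rise of 0.65 ± 0.21. Another crest marker, foxd3, was at 0.04 and not called, with -0.03 on array 1 and 0.11 on array 2. Of the 34 crest genes, 4 were called higher without 12 hpf replicate 1 and 3 without replicate 2, and 0 in either of those settings were called lower. Hox genes and their cofactors showed 10 rises (20.8%) and 1 fall (2.08%) among 48, with a median of 0.10. With the scanner software's processed signals 1 of them was called in each direction. The epidermis list showed 13 rises (30.2%) and 4 falls (9.3%) among 43. The list of yolk syncytial layer genes showed 9 rises (34.6%) and 3 falls (11.5%) among 26. The shares over all genes were 13.3% and 11.9%. The epidermis median was 0.14 on array 1 and 0.08 on array 2, and the yolk median 0.14 and 0.07. With the scanner software's processed signals 3 epidermis genes were called higher and 1 lower, and in the yolk list 4 and 0. In the yolk list, the lipid carrier gene fabp1b.1 was at 41120 and 40689 in MO-Bad, against 20959 and 25232 in WT, a rise of 0.83 ± 0.20. Its relative fabp2 was at 33182 and 33761 in MO-Bad, against 19954 and 22582 in WT, a rise of 0.66 ± 0.11. Of 43 muscle genes 3 rose and 0 fell, under the shares of all genes, and 2 were called lower without 12 hpf replicate 2 and with the scanner software's processed signals. Among the 3 were tnnt3b at 0.56 ± 0.15 and mef2ca at 0.64 ± 0.14, with 0.24, called, and 0.08, not called, on the other 2 probes of mef2ca.

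Ribosomal protein genes were mostly higher among those called. Of 81 measured 34 (42%) rose and 1 (1.23%) fell, beside 13.3% and 11.9% of all genes. The median was 0.20, and 68 were above 0 on both arrays. Without 12 hpf replicate 1, 19 were called higher, and without replicate 2, 27. rps18 was at 90056 and 94950 in MO-Bad, against 58354 and 64265 in WT, a rise of 0.59 ± 0.04, with 0.38 on its other probe. rpl27a was at 63229 and 69038 in MO-Bad, against 41937 and 45916 in WT, a rise of 0.59 ± 0.00. The one fall was rpl31 at -0.38 ± 0.19, with -0.43 on its other probe, and it was not called with 12 hpf replicate 1 left out (-0.24, adjusted p = 0.135). The size of the rise moved with the processing. The median was 0.78 with 74 called higher under centring over the probes kept. It was 0.10 with 1 called higher under the scanner software's processed signals, which differ in background correction and dye normalization together and left 336 genes called higher over all. Splicing genes showed 18 rises (18.9%) and 8 falls (8.42%) among 95 with a median of 0.02, 9 and 1 without 12 hpf replicate 1, 12 and 5 without replicate 2 and 49 and 1 with centring over the probes kept. Translation factors showed 5 rises (6.94%) and 10 falls (13.9%) among 72 with a median of -0.01, 4 and 2 without replicate 1, 2 and 5 without replicate 2 and 27 and 0 with that centring.

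**Figure D5:**
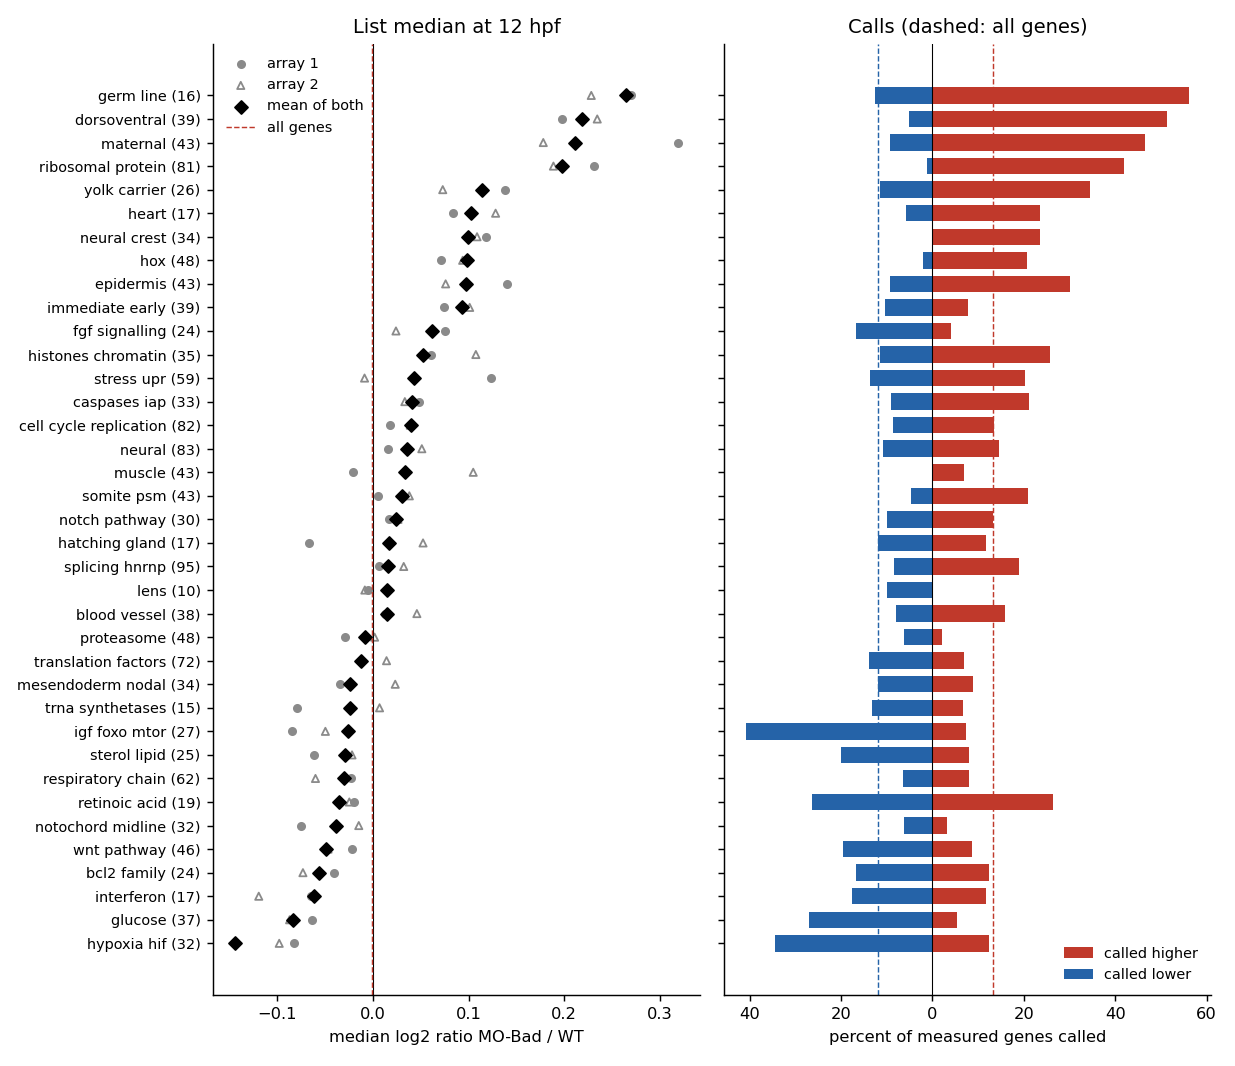
Gene lists at 12 hpf, with the number of measured genes in brackets. On the left, the median log2 ratio of MO-Bad over WT on array 1, on array 2 and for the mean of both; on the right, the percent of measured genes called higher (red) and lower (blue), with dashed lines at 13.3% and 11.9% for all 9407 genes. Germ-line, dorsoventral, maternal and ribosomal protein lists lie highest; oxygen-sensing (hypoxia hif) and Igf, Foxo and mTOR lists have the highest shares called lower, and the medians of these lists and of glucose genes turned above 0 with median centring over all noncontrol probes.

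A gene measured in 1 group and not well above background in the other was given a bound on its ratio, the bright group's mean over the dim group's mean. The dim mean takes, per array, the higher of the probe's own signal and the lowest signal well above background. Means were taken on the log2 scale after loess and quantile normalization between arrays. Of the 25256 member probes, 440 were measured in this way in MO-Bad and 85 in WT, and 50 and 25 of these were called. For 5 and 1 the bound was 1.5-fold or more. MO-Bad was always in Cy5, in which 60.6% and 57.9% of probes were well above background on the 12 hpf arrays. In Cy3 these shares were 55.9% and 57.9%. Channel and group cannot be told apart in these counts. The probes entered through the group in which they were bright, so their direction was fixed by the filter. The adjusted p-values of the fit are given for them as a description only. Of the named ones, abcd4 was 2.104-fold higher in MO-Bad, with mean log2 intensities of 7.47 in MO-Bad and 6.396 in WT (adjusted p = 0.0348). Its log2 ratio on array 1 was only 0.15. igfbp1b was 1.56-fold higher, with 7.07 in MO-Bad and 6.43 in WT (adjusted p = 0.0224). Both were high on array 2 alone, igfbp1b at 83.3 and 160 in MO-Bad, against 73.9 and 73.8 in WT, and igfbp1b was not called without 12 hpf replicate 2 (0.17, adjusted p = 0.253). tlcd1 was 1.63-fold lower in MO-Bad, with 6.29 in MO-Bad and 6.999 in WT (adjusted p = 0.000204). For abcd4, igfbp1b and tlcd1 the dim group's own signal was the one used, so the value equals the fitted fold. It is an estimate from the mean of the arrays and not a lower bound.

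The ratios at 12 hpf were then set against those at 24 hpf in the same fit. Over the member probes the mean ratios of the 2 ages correlated at r = 0.41 and rho = 0.40, across probes that share slide, dye orientation and sequence. Of the 9407 genes, 2367 were called at 12 hpf and 2518 (26.8%) at 24 hpf, and 931 at both, 818 in the same and 113 in the opposite direction. The difference itself, 12 minus 24 hpf, passed for 2268 member probes (8.98%) and 1058 genes (11.2%), with 690 (7.33%) higher at 12 hpf and 368 (3.91%) lower. By limma that count was 0 in either direction with the scanner software's processed signals, the deposited log ratios, plain background subtraction and median centring over all noncontrol probes, where 1061, 1076, 1012 and 221 genes were higher and 923, 947, 836 and 102 lower at an unadjusted p under 0.05. It was 334 and 166 without 24 hpf replicate 1, 422 and 174 without 24 hpf replicate 2, and 410 and 179 without 12 hpf replicate 1.

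The 25 largest rises and the 25 largest falls were chosen for their size at 12 hpf, so smaller ratios at 24 hpf follow at least in part from that choice, and no set chosen at 24 hpf was examined. Of the 25 largest rises 23 differed between the ages and 15 were called higher at 24 hpf too, the median ratio being 1.07 at 12 hpf and 0.30 at 24 hpf. Of the 25 largest falls 17 differed and 13 were called lower at 24 hpf, with medians of -1.11 at 12 hpf and -0.27 at 24 hpf. tmem144b, at -1.83 at 12 hpf, was at -0.04 at 24 hpf, and stx5a, at 1.04 at 12 hpf, was at -0.00 at 24 hpf. phlda3 was called in opposite directions, at -1.21 at 12 hpf and 0.35 at 24 hpf. Among 39 dorsoventral genes 17 had a higher ratio at 12 hpf, and ved was at 0.59 at 12 hpf and -1.25 at 24 hpf. Among 43 somite genes 21 had a higher ratio at 12 hpf and 1 a lower one. The dorsoventral median was 0.22 at 12 hpf and -0.13 at 24 hpf. The somite median was 0.03 at 12 hpf and -0.23 at 24 hpf, so its difference lay mainly in lower ratios at 24 hpf. Other lists had many such genes too: 15 of 43 epidermis, 11 of 34 neural crest, 9 of 34 mesendoderm and 8 of 24 Fgf genes. In those lists 2, 0, 1 and 0 had a lower ratio at 12 hpf. Over all genes 7.33% had a higher and 3.91% a lower ratio at 12 hpf.

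Other changes were of like size at both ages, and their difference did not pass. egln3 was at -1.98 at 12 hpf and -2.13 at 24 hpf (difference 0.15, SE 0.16), p4ha1b at -1.11 at both, and ldha at -0.71 at both. The difference was likewise not called for st3gal8, rbm48, cdc5l and map1lc3b, which read -0.99, -0.89, -0.76 and -0.61 at 24 hpf. The ribosomal protein median was 0.20 at 12 hpf and 0.15 at 24 hpf, with 2 genes differing in each direction.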

How the data were processed

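Each of the 4 arrays carried MO-Bad RNA in Cy5 and WT RNA in Cy3. Per the file headers, the deposited scanner files hold spot intensities from Agilent Feature Extraction, version 10.5.1.1 per the submitters' processing notes, and the scanner software's own p-value of each log ratio. The deposited value table holds log10 ratios, which equalled the scanner files' Cy5 over Cy3 ratios. Array number limits the precision; no spot of the noncontrol probes was saturated.

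Median signals and local background medians were corrected by normexp (offset 50), normalized by loess within each array and averaged per probe without outlier-flagged spots, which left 21 probes with no value. limma 3.58.1 in R 4.3.3 fitted a mean per age on all 4 arrays (2 residual degrees of freedom) over 28304 probes whose signal on both arrays of an age was well above background in 1 channel or in both. Tests were two-sided, with Benjamini-Hochberg adjustment over those probes and a threshold of 0.05. The procedure was also run on simulated data, with independent noise of the spread estimated by the fit itself and a smooth dye curve. That run could not test effects of the missing dye swap, the shared slide or differences between pools. Symbols came from RefSeq accessions, of which 16770 of 19210 matched, and the array's annotation can be old.

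The genes named were the 25 largest rises and the 25 largest falls, up to 4 called members of each list plus up to 2 in its rarer direction, badb, and up to 10 probes per direction measured in 1 group only; not every eligible gene is described, and others are stated as chosen after their values were seen or serve as stage markers and comparisons. The members and the 38 gene lists were chosen with earlier results of these data known. Results of 1 list and of some of its genes are not reported here. Alternatives changed the background correction, the normalization, the filters, the moderation, the samples and the probe of a gene. Sequences were not used here.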

Additional observations from a re-analysis of the deposited data

Results flagged for a closer look

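In the results below the ratio of MO-Bad over WT at 12 hpf differed from that at 24 hpf, by the limma contrast of the 2 ages at an adjusted p under 0.05. Each value is the 12 hpf minus the 24 hpf log2 ratio of a gene named above. Many of these genes were named for the size of their 12 hpf change, which by itself favours a difference from 24 hpf. The 2 ages were not balanced over dyes and share 1 slide, and none of these differences passed under processed signals, deposited log ratios, plain background subtraction or median centring over all noncontrol probes.

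Among oocyte-made and germ-line mRNAs the difference was above 0 in most, with 1.08 for h1m, 1.03 for 42sp43, 1.02 for lsm14b, 0.99 for ccna1, 0.78 for slbp2, 0.75 for tnfaip1, 0.72 for eomesa, 0.67 for figla, 0.64 for nanog, 0.51 for ca15b, 0.51 for zp3d.1, 0.49 for tdrd1, 0.37 for cth1 and 0.36 for mos, and below 0 with -1.51 for rbpms2b, -1.50 for wee2 and -1.30 for birc5b.

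For patterning, mesoderm and crest genes it was 1.83 for ved, 1.06 for sox10, 0.98 for wnt8a, 0.84 for mef2ca, 0.70 for ripply2, 0.67 for tp63, 0.64 for vox, 0.61 for tnnt3b, 0.58 for msx2b, 0.54 for eve1, 0.49 for noto, 0.48 for tbxta, 0.40 for bmp4 and 0.39 for her7, and -1.09 for mixl1, -1.03 for rspo1, -0.86 for gdf3 and -0.54 for lfng.

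For death, Igf and other signalling genes it was -1.56 for phlda3, -1.12 for bbc3, -0.87 for foxo3b, -0.73 for igf2a and -0.57 for casp8, and 1.14 for ddit4 and 1.05 for diabloa. The ratio of ddit4 was lower in MO-Bad at both ages, at -0.44 at 12 hpf and -1.58 at 24 hpf.

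For the remaining rises it was 1.29 for c6.2, 1.19 for sub1b, 1.05 for stx5a, 1.04 for bsg, 0.99 for mat1a, 0.81 for stk38a, 0.78 for rangap1b, 0.72 for ptk7a, 0.71 for fus, 0.67 for ppp1r3c2b, 0.65 for ptbp2b, 0.65 for uraha, 0.61 for bin2a, 0.55 for fabp2, 0.49 for cdkn2aipnl, 0.46 for cnpy2, 0.45 for tmed9 and 0.43 for fabp1b.1. For the remaining falls it was -1.79 for tmem144b, -1.58 for rundc3ab, -1.15 for fosab, -1.10 for tesca, -0.998 for eno1a, -0.96 for clmnb, -0.95 for gyg1a, -0.94 for vldlr, -0.76 for pfkfb3, -0.55 for tlcd1, -0.53 for fbxw5, -0.51 for rpl31 and -0.50 for fxr1.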

How the results depend on the processing

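Counts of calls moved with background correction and with dye alignment. With offset 10, 47 called probes were at least 2-fold lower, 815 genes were called higher, and 88 and 35 genes differed between the ages upward and downward. Plain subtraction gave 521 probes higher and 345 lower (76 and 74 at least 2-fold), 167 and 147 genes, and 0 and 0 differences. Processed signals gave 1039 and 828 probes (172 and 116 at least 2-fold), 336 and 298 genes, and 0 and 0 differences. The deposited log ratios gave 1072 and 868 probes (170 and 116), 350 and 312 genes, and 0 and 0 differences. Centring over the probes kept gave 473 probes lower, 171 at least 2-fold higher, 166 genes lower, and 161 and 67 differences. Centring over all noncontrol probes gave 267 and 12 probes (258 and 11), 129 and 6 genes, and 0 and 0 differences; limma's unadjusted counts for the zeros are given with the comparison of ages. Calls by the scanner's p on each array gave 1211 and 921 probes. Leaving out 1 array gave 1314 to 3552 probes higher, 1024 to 2698 lower, 539 to 1294 genes higher and 454 to 1124 lower, 42 to 52 probes at least 2-fold higher and 30 to 35 lower, and 334 to 562 differences upward and 166 to 275 downward. Signs turned under centring over the probes kept for chrd (0.0761), lfng (0.0264), noto (0.23), shha (0.18) and sox19b (0.00443). Over all noncontrol probes they turned for badb (0.14), bag6 (0.14), chrd (0.27), lfng (0.22), nog1 (0.12), noto (0.42), shha (0.37) and sox19b (0.20). her1, not called, turned to -0.0596 without 12 hpf replicate 2 and to -0.0447 with the mean of its probes. The remaining alternatives kept all counts within 1.5 times. Replicate numbers are shared only as labels: replicate deviations of the 2 ages correlated at -0.04, and the replicate block gave 1223 genes higher and 1045 lower, with no call of a named gene changed. Calls were fewest among dim probes.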
